A study of Sus scrofa with 44 samples.

Results

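The zinc finger genes whose symbol is ZNF followed by digits and an optional letter were examined in pig fetal muscle. They were chosen by symbol and by a mean of at least 1 TPM (the authors' expression unit, which is per transcript length and library total) over 18 muscle input libraries. Of 243 such genes, 219 met the level and are called members here. They are 219 of 13334 genes at that level and of 22427 genes measured. Just inside the level lay ZNF365 at 1.01, ZNF404 at 1.08 and ZNF177 at 1.18 TPM, and just outside lay ZNF354B at 0.949, ZNF599 at 0.906 and ZNF606 at 0.825 TPM. Mean levels of the members ran from 1.01 to 94.1 TPM with a median of 6.69 TPM.

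The study mapped N6-methyladenosine (m6A), a methyl mark on adenosines of RNA, by sequencing input RNA and RNA pulled down with an antibody to the mark (MeRIP-seq). Its 44 samples comprise 36 of the longissimus dorsi, a back muscle, with 3 input and 3 pulled-down samples at each of 33, 40, 50, 60, 70 and 95 days post coitus (E33 to E95), all from rRNA-depleted RNA. The other 8 are of PK15, an established pig kidney cell line, with 2 of each kind from polyA RNA and 2 of each kind from rRNA-depleted RNA. No genotype, strain, sex or treatment is given for any sample, and no label says whether libraries of a stage came from separate animals, so p-values below measure only the spread between these samples. Values here are TPM of the 18 muscle inputs and 8 peak lists, 1 per stage and 1 per PK15 preparation, each without a replicate.

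Most proteins of this group carry C2H2 zinc fingers, short loops in which a pair of cysteines and a pair of histidines hold a zinc ion. Fingers follow each other in tandem, joined by a conserved linker, and each finger contacts a few bases of DNA or RNA. Many members also carry a KRAB domain, which recruits the corepressor TRIM28 and silences chromatin, often at transposable elements. m6A is placed by the METTL3 and METTL14 complex at adenosines in the context DRACH, which reads A, G or T, then A or G, then AC, then A, C or T. It is known to lie mostly in long internal exons and around stop codons, and it can shorten the life of an mRNA.

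Neighbouring fingers of ZNF146, a protein made of little but zinc fingers, are shown first because they display the repeat whose coding stretch held 37.2% (E95) to 46.4% (E70) of member peaks. ZNF146 (ENSSSCG00000025355) lies at chr6:45520885-45603213 on the plus strand of Sscrofa11.1, and all 879 coding bases and 10 fingers are in 1 exon. Each unit has 84 bases, or 28 codons, is wholly coding and is printed 5′ to 3′ with every DRACH in capitals. Fingers 3 to 6 lie at chr6:45598487-45598570, chr6:45598571-45598654, chr6:45598655-45598738 and chr6:45598739-45598822.
ZNF146 finger 3: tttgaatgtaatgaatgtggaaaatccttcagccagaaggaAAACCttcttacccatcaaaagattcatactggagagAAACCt
ZNF146 finger 4: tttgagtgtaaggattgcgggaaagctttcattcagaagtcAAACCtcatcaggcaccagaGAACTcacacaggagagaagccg
ZNF146 finger 5: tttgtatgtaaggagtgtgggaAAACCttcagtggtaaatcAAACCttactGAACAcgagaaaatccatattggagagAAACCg
ZNF146 finger 6: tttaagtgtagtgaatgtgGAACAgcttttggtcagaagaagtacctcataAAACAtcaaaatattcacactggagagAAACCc
The last capitals of fingers 3, 5 and 6 fall in the linker codons and read AAACC. Finger 3 lay wholly inside a peak in 5 of the 8 lists, finger 4 in 7, finger 5 in 4 and finger 6 in 1. The ZNF146 transcript had 2 peaks in each of the 8 lists. Its scaled level (defined with the stage results) was 11.4 to 11.9 at E33 and 12.02 to 12.99 at E95.

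Coding peaks of members with many peaks are shown beside these repeats, because they lie in other stretches of coding sequence and were called in most lists. All are wholly coding, in 1 block, printed 5′ to 3′ on the plus strand of Sscrofa11.1 with every DRACH in capitals. They lie at chr3:17613320-17613470 (ZNF629), chr1:128931590-128931769 (ZNF106) and chr1:55703904-55704114 (ZNF292).
ZNF629 peak: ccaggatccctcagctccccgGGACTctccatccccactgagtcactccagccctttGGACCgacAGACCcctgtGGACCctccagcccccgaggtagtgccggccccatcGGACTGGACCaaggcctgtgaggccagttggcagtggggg
ZNF106 peak: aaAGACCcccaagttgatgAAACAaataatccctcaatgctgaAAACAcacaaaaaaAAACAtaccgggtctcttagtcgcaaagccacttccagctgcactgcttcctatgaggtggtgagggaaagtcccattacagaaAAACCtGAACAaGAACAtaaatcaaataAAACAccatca
ZNF292 peak: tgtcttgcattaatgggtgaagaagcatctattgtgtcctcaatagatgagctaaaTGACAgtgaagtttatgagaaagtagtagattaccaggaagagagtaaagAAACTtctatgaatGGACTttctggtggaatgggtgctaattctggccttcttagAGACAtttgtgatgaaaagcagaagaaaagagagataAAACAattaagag
The ZNF629 peak holds 6 DRACH in 151 bases, 2 of them the strict form GGACT, and was contained in peaks of 6 lists. The ZNF106 peak holds 8 in 180 bases, none of them GGACT, and was contained in peaks of all 8 lists. The ZNF292 peak, with 5 DRACH in 211 bases and 1 of them GGACT, was also contained in peaks of all 8 lists. Their authors' fold enrichments of pulled-down over input RNA were 5.63 for ZNF629 and 4.80 for ZNF292 in the PK15 rRNA-depleted list, and 3.98 for ZNF106 in the E40 list.

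Members carried a peak more often than other genes of like TPM in 7 of the 8 lists. The comparison took 10534 other genes with a symbol, weighted to the members over 10 bins of mean muscle TPM. In the E33 list, 111 members (50.7%, Wilson 95% interval 44.1 to 57.2) had a peak, against 38.6% of the other genes, and 34.8% of all genes tested had one. At E40 the values were 64 members (29.2%, interval 23.6 to 35.6), 24.7% and 22.5%, so the interval covered the share of the other genes. At E50 there were 97 members (44.3%, interval 37.9 to 50.9) against 34.0%, with 30.4% of all genes. At E60 there were 98 members (44.7%, interval 38.3 to 51.4) against 34.9%, with 31.4% of all genes.

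The later stages had the widest gaps. At E70, 116 members (53.0%, interval 46.4 to 59.5) had a peak against 38.1% of the other genes and 34.4% of all genes, and at E95, 110 members (50.2%, interval 43.7 to 56.8) against 37.3% and 33.7%. In PK15 polyA RNA, 159 members (72.6%, interval 66.3 to 78.1) had a peak against 64.2% of other genes and 57.1% of all. The rRNA-depleted PK15 list ran the other way, with 86 members (39.3%, interval 33.0 to 45.9) against 42.5%, and 37.1% of all genes. The interval there covered the share of the other genes, and with peaks above the list's median fold the difference was 6.15 percentage points in favour of the members. These intervals cover counting error only, and PK15 genes were matched on muscle TPM, since TPM of PK15 was not used here.

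**Figure D1:**
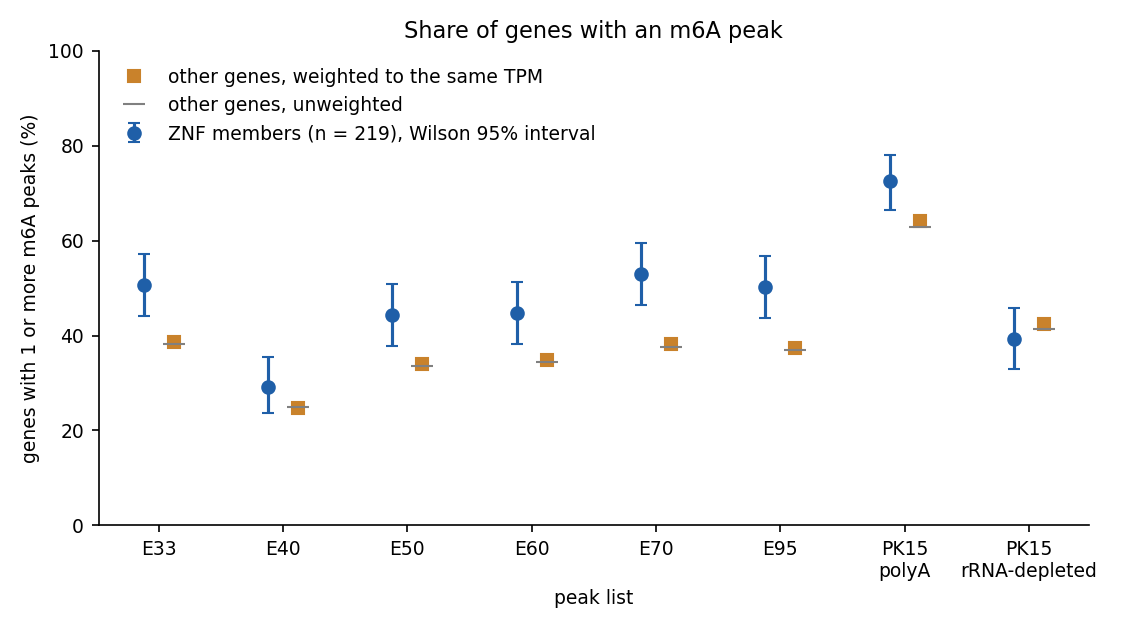
Share of genes with at least 1 m6A peak (y axis, percent) in each of the 8 lists (x axis), for the 219 ZNF members with Wilson 95% intervals (circles), for other genes weighted to the same TPM (squares) and for other genes unweighted (dashes). The members lie above the squares in 7 lists, from 29.2% against 24.7% at E40 to 53.0% against 38.1% at E70, and below in rRNA-depleted PK15 RNA, at 39.3% against 42.5%.

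Members have the longer transcripts. Of 188 members matched to a RefSeq transcript by symbol, 182 had no peak placed elsewhere by the files, and their median transcript was 4399.5 bases, against 3388 in 9296 other genes. With transcript length matched beside TPM, for those 188 members alone, the differences were 7.71 (E33), 1.40 (E40), 8.15 (E50), 7.46 (E60), 11.09 (E70) and 11.5 (E95) percentage points at the stages, 7.67 in PK15 polyA RNA and -5.22 in PK15 rRNA-depleted RNA. Among genes with a peak, matched on TPM without length, members had more of them. The mean number per member with a peak was 2.14 (E33) against 1.82 in other genes, 1.77 against 1.56 (E40), 1.97 against 1.66 (E50), 1.98 against 1.74 (E60), 2.11 against 1.79 (E70) and 1.82 against 1.73 (E95). It was 2.57 against 1.98 in PK15 polyA RNA and 2.07 against 1.86 in PK15 rRNA-depleted RNA. The ratio thus ran from 1.05 at E95 to 1.30 in PK15 polyA RNA. With length matched too, for the 188 members, the means were 2.18 against 1.88 (E33), 1.76 against 1.66 (E40) and 1.96 against 1.71 (E50). Later stages had 1.97 against 1.80 (E60), 2.14 against 1.84 (E70) and 1.82 against 1.78 (E95). The PK15 means were then 2.63 against 2.07 (polyA) and 2.08 against 1.98 (rRNA-depleted).

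Median peak length was within 2 bases of that in other genes in 7 of the 8 lists and 29 bases shorter at E70. Median length over exon bases was 210.5 bases at E33 against 210, 180 against 181 at E40, 210 in both at E50, 181 in both at E60, 181 against 210 at E70, 180 against 181 at E95, 271 against 270 in PK15 polyA RNA and 209 against 211 in PK15 rRNA-depleted RNA. All these medians lay at or next to 180, 210 or 270 bases, so they may not show differences smaller than such a step. Mean length was the shorter in the members in 7 lists, from 228 against 237 bases at E60 to 215 against 272 in PK15 rRNA-depleted RNA, and was 354 against 350 in PK15 polyA RNA. With peaks above the list's median fold, the median difference was -30.0 bases at E33 and -60.0 in PK15 rRNA-depleted RNA. Member peaks also crossed an exon junction less often. In the members 7.30% (PK15 rRNA-depleted) to 12.01% (PK15 polyA) of the peaks had more than 1 block, against 19.7% (E60) to 29.3% (E40) in other genes of like TPM. The median authors' fold was higher in the members in every list, from 3.94 against 3.50 at E33 to 8.74 against 7.28 in PK15 polyA RNA.

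Member peaks lay in coding sequence. By its midpoint in the RefSeq transcript, 73.4% (E60) to 78.0% (E50) of member peaks in the stage lists were in the coding sequence more than 200 bases from the stop codon, against 59.9% (E60) to 69.2% (E40) in other genes. In PK15 polyA RNA the shares were 65.9% and 41.2%, and in PK15 rRNA-depleted RNA 77.2% and 58.0%. Near the stop codon, the site m6A is best known for, members had the smaller share in each list, from 11.7% against 17.7% at E40 to 17.2% against 21.8% at E60. The members' share near the stop codon was 3.19% (E40) to 10.9% (PK15 polyA) within 100 bases and 14.9% (E40) to 24.3% (E60) within 300 bases, and other genes were counted within 200 bases only. In the 3′ UTR the shares were 6.37% against 9.50% at E33, while at E40 they were 7.45% against 7.02%. Other genes were not weighted by TPM in these shares.

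The last coding exon, which codes 73.5% of the members' fingers, took a large share of these peaks. The median last coding exon of the members held 1017.5 coding bases, or 65.0% of the coding sequence, against 153 bases and 10.8% in other genes. Its coding part held 42.6% (E40) to 56.8% (E60) of member peaks over the 8 lists, against 19.0% (PK15 polyA) to 25.1% (E40) of the peaks of other genes. In the members these shares lay below the exon's median share of the coding sequence, and in other genes above it. They are shares of all peaks, those in UTRs included, and other genes were not weighted by TPM. ZNF146, ZNF292 and ZNF629 show this layout, with 100%, 87.5% and 97.2% of the coding sequence in that exon, whereas ZNF106 and ZNF462 have 0.998% and 2.71% there.

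**Figure D2:**
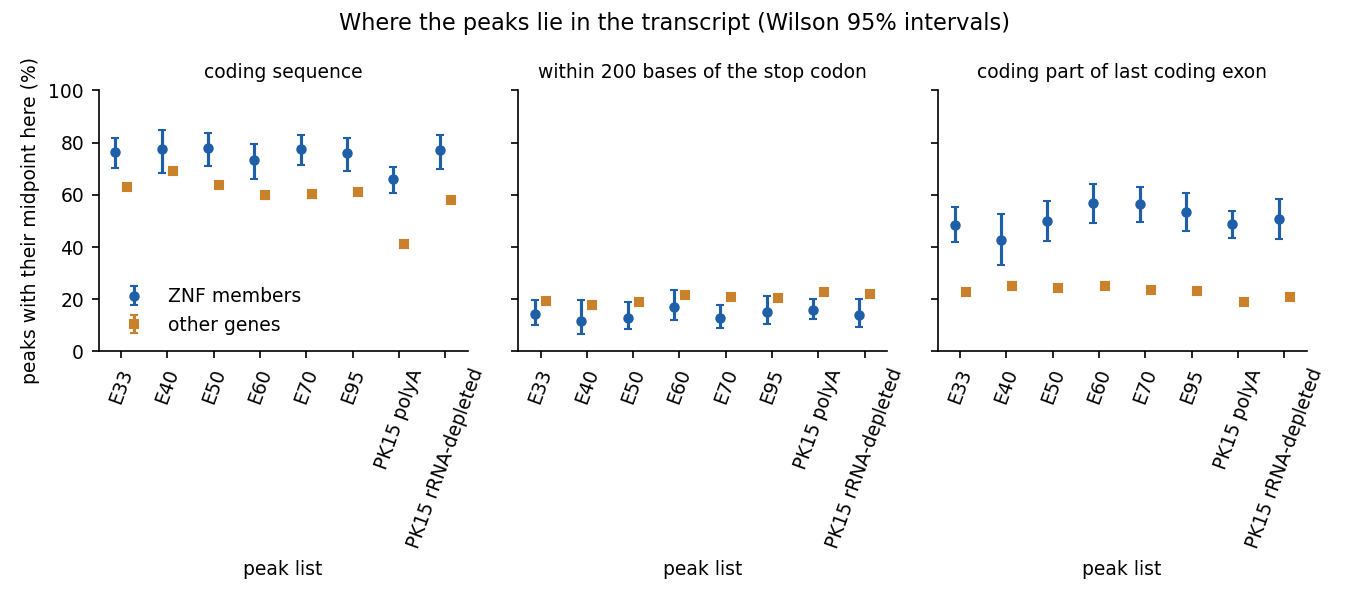
Share of peaks (y axis, percent) with their midpoint in coding sequence, within 200 bases of the stop codon or in the coding part of the last coding exon (panels), in each list (x axis), for ZNF members (circles) and other genes (squares) with Wilson 95% intervals. The first 2 classes exclude each other and the last cuts across both. Members lie above other genes in coding sequence and in the last coding exon in each list, with 56.8% against 25% in that exon at E60. Other genes are not weighted by TPM here.

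Within the members, peaks covered less of the finger-coding stretch than of the rest of the coding sequence in 6 of the 8 lists. Translated transcripts of 180 members gave 1616 fingers of the pattern with 2 cysteines and 2 histidines, a median of 8 and at most 34 (ZNF462) per member, and 9 members had none of this pattern. In members with a peak, peaks covered 19.4% of the bases from the first to the last finger at E33 and 19.4% of the rest of the coding sequence. The shares were 8.89% and 13.5% at E40, 14.8% and 16.9% at E50, 14.1% and 16.6% at E60, 17.1% and 17.9% at E70 and 11.5% and 15.3% at E95. They were 33.9% and 32.3% in PK15 polyA RNA and 16.3% and 17.96% in PK15 rRNA-depleted RNA. Against these, peaks covered 2.48% of the members' 3′ UTR bases at E33, where other genes had 3.82%.

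Members with many fingers had a peak less often in most of the lists examined, which were E33, E70, E95 and both PK15 lists. Members with 0 to 4 fingers (49) had a peak in 65.3% of cases at E33 (Wilson 95% interval 51.3 to 77.1) and those with 15 or more (28) in 39.3% (interval 23.6 to 57.6). Between them, members with 5 to 9 fingers stood at 51.9% and those with 10 to 14 at 46.9%. From few to many fingers the 4 groups stood at 57.1%, 53.7%, 53.1% and 42.9% at E95, at 79.6%, 79.6%, 67.3% and 67.9% in PK15 polyA RNA and at 49.0%, 51.9%, 32.7% and 25% in PK15 rRNA-depleted RNA. At E70 there was no such order, with 55.1%, 55.6%, 49.0% and 57.1%. The groups' median levels were 8.70, 8.08, 5.93 and 5.31 TPM in the same order, and the part of this in the shares was not tested. Wilson intervals of the end groups overlapped in each of these lists. Among members with a peak, those with 15 or more fingers had more peaks than those with 0 to 4, except at E70. All members of these 2 groups had median coding lengths of 2635.5 and 1554 bases and median transcripts of 5295 and 4277 bases. The part of length in the number of peaks was not tested. Means were 3.09 against 2.28 (E33), 2.56 against 2.59 (E70), 2.08 against 1.96 (E95), 3.16 against 2.54 (PK15 polyA) and 3.00 against 2.17 (PK15 rRNA-depleted). Across the 180 members, Spearman's rho between fingers and peaks summed over the lists was -0.04, against 0.57 between mean TPM and peaks and 0.26 between transcript length and peaks. These are descriptions across genes of 1 set of lists, and rho between fingers and TPM was -0.20. Reads of near-identical ZNF copies may be split or shared between genes in the authors' counting, which was not tested.

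The repeat gives m6A contexts fixed places. In 1104 finger units of exactly 84 bases from 144 members, 79.3% held at least 1 DRACH, against 80.5% of 207069 windows of that length in the coding sequence of other genes without fingers. The repeats thus held it about as often as other coding windows, but at a few positions. Its A lay at base 81, in the linker, in 43.1% of the units, at base 64 in 19.0%, at base 54 in 13.5%, at base 44 in 9.87% and at base 25 in 9.69%. The linker spells TGEKP in protein in 45.8% of the units. The form AAACC, counted anywhere in the unit and not in the linker alone, was found in 41.6% of units and 7.36% of the other coding windows. The strict form GGACT was the scarcer in fingers, in 5.71% of units against 8.39% of windows.

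**Figure D3:**
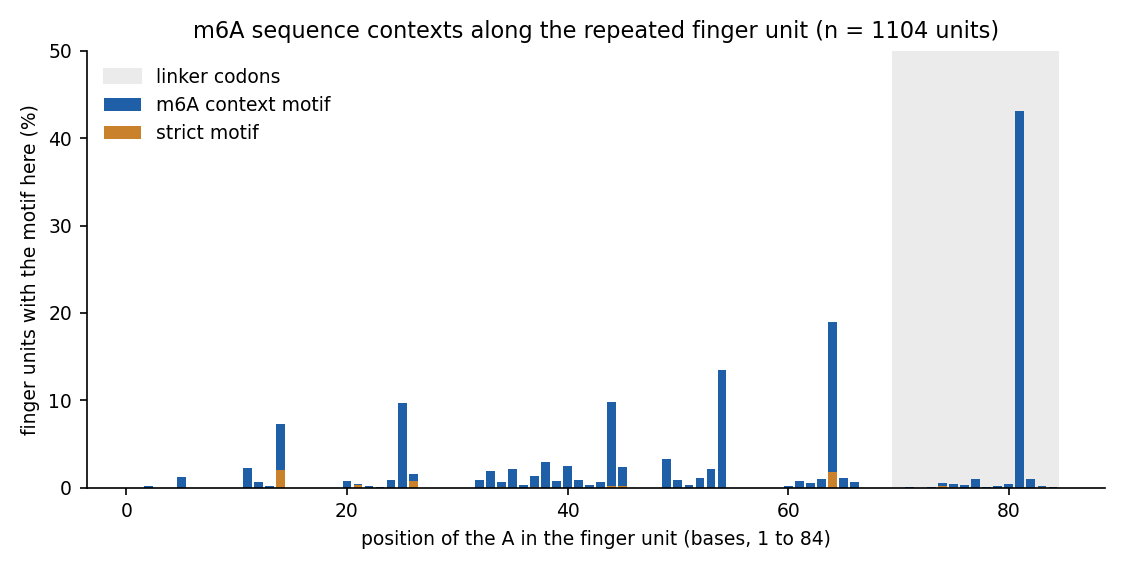
Percent of 1104 finger units (y axis) in which the A of a DRACH context (dark bars) or of its strict form (light bars, drawn in front) lies at each of the 84 bases of the unit (x axis), with the linker codons shaded. The tallest bar is at base 81 in the linker (43.1%), followed by base 64 (19.0%) and base 54 (13.5%).

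The strict form was denser inside peaks than outside in each list. AAACC, counted over the whole finger-coding stretch and not in the linkers alone, was so in 3 of 8. In the finger-coding stretch of members with a peak, AAACC stood at 2.04 per kb inside peaks and 2.47 outside at E33, a ratio of 0.824. The ratio was 1.35 (E40), 0.952 (E50), 0.951 (E60), 1.14 (E70), 0.964 (E95), 0.914 in PK15 polyA RNA and 1.10 in PK15 rRNA-depleted RNA. For GGACT in the same stretch the ratios were 1.83, 2.28, 2.02, 2.37, 2.31, 2.64, 2.49 and 2.57 in that order of lists. These rest on 12 (E40) to 69 (PK15 polyA) GGACT and 17 (E40) to 135 (PK15 polyA) AAACC inside peaks, and no test was made. Other forms of DRACH were also denser inside peaks of that stretch in each list. Among them were GGACC, with ratios of 1.42 (E95) to 2.22 (E40), and GAACT, with 1.53 (PK15 polyA) to 2.25 (E95). The highest ratio of all forms was that of GGACC at E33 (1.99), of TAACT at E70 (2.42) and of GGACT in the other lists. Of the 1104 units, 1068 lie within 1 exon. Of these, 224 lay wholly inside a peak of 1 block in at least 1 list, and 10.3% of them held GGACT and 35.7% AAACC. The other 844, which peaks may overlap in part, held these in 4.50% and 43.7%. Over whole transcripts, DRACH was denser in member peaks than outside them by 1.25 (PK15 polyA) to 1.42 times (E95), and in other genes by 1.21 to 1.29 times. A motif match describes the sequence and does not show a methylated base.

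Peaks were spread over most members. In at least 1 list 192 members had a peak (87.7%, other genes 74.0%), 43 had one in all 8 lists (19.6%, other genes 16.2%) and 27 in none (12.3%, other genes 26.05%). Over the 6 stages, 147 members had a peak in at least 1 list (67.1%, other genes 50.1%) and 56 in all 6 (25.6%, other genes 20.2%). These other genes were not weighted by TPM. The 56 are 38.1% of the 147, against 40.4% of other genes with a stage peak. Members with a peak at all stages had a median mean level of 11.5 TPM, those with none 3.54 TPM. From E33 to E40, 62 of 111 members kept a peak (55.9%, other genes 61.7%), and 2 gained one. From E40 to E50, 60 of 64 kept one and 37 gained one. The E40 list is the shortest, with 4928 peaks against 7058 to 8685 in the other stage lists, and the part of this in the losses and gains was not tested.

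The most heavily marked member was ZNF106, an RNA-binding protein needed by motor neurons and muscle in mice. It had 8, 8, 6, 7, 7 and 6 peaks at the 6 stages, 6 and 5 in the PK15 lists, and the highest mean level of all members, 94.1 TPM. ZNF592, which works with ZNF532 and ZNF687 in a chromatin complex with ZMYND8, had 7, 6, 7, 7, 7 and 9 peaks at the stages and 3 and 2 in PK15. ZNF462, needed for brain development, had 10, 3, 7, 5, 6 and 2 peaks at the 6 stages. Its scaled level was 15.7, 15.995 and 16.7 at E33 and 8.86, 6.87 and 9.42 at E95, with stage means of 16.1, 11.7, 11.12, 10.1, 9.04 and 8.38, each below the one before, while the count of peaks was higher at E50, E60 and E70 than at E40. Also among the 8 with most peaks were ZNF292 (44 in all), ZNF318 (41), ZNF629 (39), ZNF644 (35), a partner of the G9a histone methyltransferase, and ZNF638 (34), an RNA-binding protein of nuclear speckles.

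Among members with a RefSeq model, single peaks of great length or fold came from a few. The longest held 957 exon bases at E33 and at E50, both in ZNF521, an inhibitor of the EBF1 transcription factor, at chr6:110000641-110001597 and 30 bases further on. In PK15 polyA RNA it was a peak of 1782 bases in the coding sequence of ZNF281 (chr10:23036146-23037927). The highest authors' fold at E33 and at E60 belonged to 1 region of ZNF827 near its stop codon (chr8:82782329-82782748), with 32.5 and 26.3. ZNF384 had the highest at E50 (37.7) and ZNF516, an activator of brown fat genes, at E95 (31.4). A fold of 960 for ZNF865 in PK15 polyA RNA stood far above these. Members of the highest level without any peak were ZNF575 (15.03 TPM), ZNF467 (8.24), ZNF773 (8.14), ZNF783 (7.01) and ZNF280C (5.63).

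Levels over the stages were compared after scaling, because 1 gene without a symbol held 37.4% to 72.4% of the TPM of each library. Deposited TPM was divided by a median-ratio factor per library (0.305 to 2.01), and limma compared log2(scaled TPM + 1). As deposited, the median log2 change of all genes from E33 to E95 was -1.02 and after scaling -0.00, and for the members it was -1.09 and -0.06. Summed scaled TPM of the members was 1823.98 (E60 replicate 1) to 2211.05 (E33 replicate 3) over the 18 libraries. Depth is unknown, since every library sums to 1000000 TPM.

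With scaled TPM, a smaller share of members than of all genes was called over the stages. The F test over 6 stages (limma, adjusted p under 0.05) called 68 members (31.1%), against 47.5% of all genes tested and 50.6% of other genes of like TPM. From E33 to E95, 30 members were higher (13.7%, all genes 22.8%) and 48 lower (21.9%, all genes 23.8%). These shares depended on scaling. By the F test they were 14.2% of members and 20.1% of all genes as deposited, 32.9% and 48.5% with quantile normalization, and 56.6% and 60.5% after rescaling without the 2 most abundant genes. From E33 to E95, in both directions together, 35.6% of members and 46.7% of all genes were called as scaled, 41.1% and 46.7% with quantile normalization, 61.6% and 60.8% after that rescaling, and 56.2% and 48.5% as deposited, where the members' share was the larger. No test of the difference in shares was made. The members' split was 34 higher and 56 lower with quantile normalization, 3 and 132 after the rescaling, and 1 and 122 as deposited, where the median of all genes moved down too, and 49 calls were shared in the same direction by scaled and deposited values. The middle range of member changes (25th to 75th percentile) was -0.45 to 0.25 on the log2 scale, against -0.45 to 0.43 over all genes, with a median SE of 0.17 and 0.16.

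**Figure D4:**
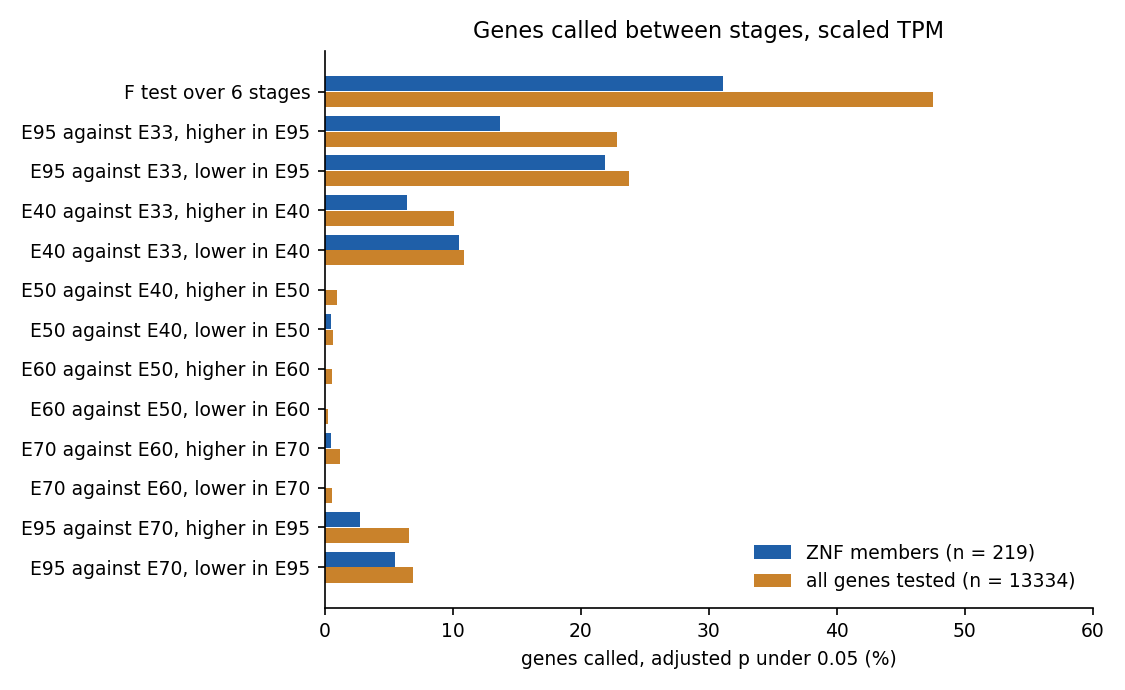
Percent of genes called by limma at an adjusted p under 0.05 (x axis) in each comparison of stages (y axis), for the 219 ZNF members and all 13334 genes tested, with scaled TPM. With this scaling the members' bars are the shorter ones in each comparison, with 31.1% against 47.5% in the F test and 0 members called from E50 to E60.

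Among members that rose, ZNF592 led. Its scaled TPM was 6.84, 5.94 and 7.04 at E33, 8.45, 9.28 and 9.13 at E40, 9.91, 9.03 and 12.1 at E50, 13.8, 14.4 and 15.6 at E60, 23.3, 19.8 and 20.1 at E70 and 27.4, 28.2 and 33.9 at E95. The libraries of E95 lay above all others and those of E33 below all others. From E33 to E95 it rose by 2.02 on the log2 scale (SE 0.11, limma adjusted p 4.30e-09), and as deposited 0.86 (limma adjusted p 0.102), where the median gene fell by 1.02. ZNF641 was at 1.26, 1.66 and 1.84 at E33 and at 11.4, 5.98 and 10.1 at E95. It rose by 1.94 on the log2 scale (SE 0.21, limma adjusted p 3.54e-06; as deposited 0.97, adjusted p 0.0487), and it had no peak in any list. The next rises were ZNF524 (1.07), ZNF280D (0.96), ZNF438 (0.89), ZNF784 (0.76), ZNF684 (0.76) and ZNF274 (0.75), which as deposited had changes of -0.07, -0.07, -0.03, -0.43, -0.17 and -0.03. ZNF274, which brings a histone methyltransferase to zinc finger gene clusters, was called in 3 of 6 fits that left out a library and missed the threshold with a pseudocount of 0.1 (limma adjusted p 0.227) and after rescaling without the 2 most abundant genes (limma adjusted p 0.436). Its mean scaled level was 1.17 at E33, near 0 at E40, 0.448 at E50 and 2.65 at E95.

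The greatest fall was that of ZNF185, a LIM domain protein of the actin cytoskeleton that bears a ZNF symbol without finger repeats. It was at 9.54, 8.95 and 10.4 at E33 and at 2.66, 2.05 and 2.86 at E95, and it fell by 1.60 on the log2 scale (SE 0.28, limma adjusted p 0.000314). ZNF618 was at 16.6, 13.5 and 17.1 at E33 and at 5.33, 4.64 and 5.78 at E95, and it fell by 1.42 (SE 0.12, limma adjusted p 3.48e-07). The ranges of both stages were apart in each gene. ZNF37A (-1.59), ZNF446 (-1.54), ZNF385B (-1.26), ZNF385D (-1.23), ZNF250 (-1.22) and ZNF575 (-1.12) followed. All 8 were also called lower as deposited, with changes of -1.97 (ZNF385B) to -2.64 (ZNF446). There the median change of all genes was -1.02 and 122 of 219 members were called lower, so these calls are not a separate check. ZNF575 was called in 3 of 6 fits that left out a library.

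**Figure D5:**
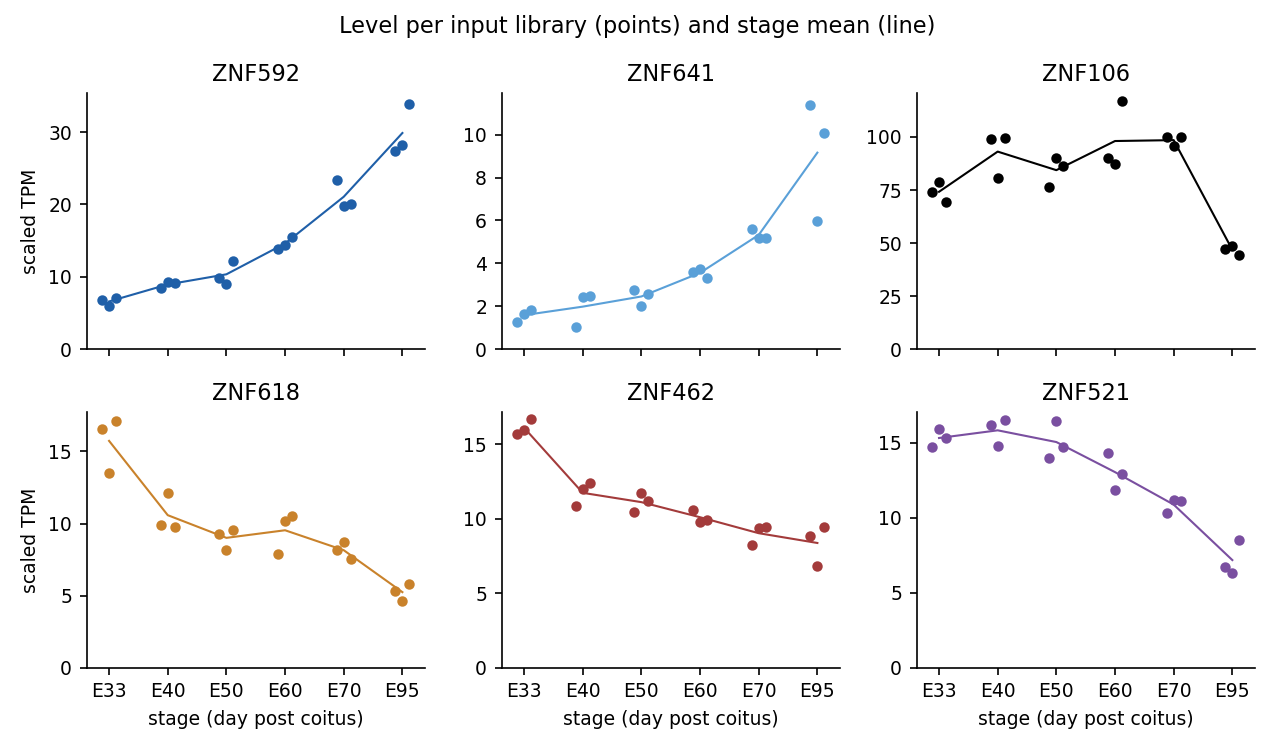
Scaled TPM (y axis, linear from 0) of 6 members in each of 18 input libraries (points, 3 per stage) with the stage mean (line) from E33 to E95 (x axis). The points of ZNF592 go from 5.94 to 7.04 at E33 to 27.4 to 33.9 at E95, ZNF641 is highest and ZNF106 lowest at E95 (44.6 to 48.6), and ZNF618, ZNF462 and ZNF521 lie lower at E95 than at E33.

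Between consecutive stages, few members changed after E40. From E33 to E40, 14 members rose (6.39%, all genes 10.1%) and 23 fell (10.5%, all genes 10.9%). Of the libraries, 4 carried that count of 37, which became 16 with E33 replicate 1 left out, 18 with E33 replicate 3, 13 with E40 replicate 1 and 15 with E40 replicate 3. Among those whose libraries do not overlap, the largest fall, ZNF598, a ubiquitin ligase at collided ribosomes, rests on 2 E40 libraries listed near 0 beside 1 at 5.27, and the largest rise, ZNF653, on 2 E33 libraries listed near 0. From E40 to E50, 0 rose (all genes 0.945%) and 1 fell (0.457%, all genes 0.6%), ZNF483, from 7.86, 10.9 and 8.20 to 6.52, 5.89 and 5.83 scaled TPM, with 19 members at an unadjusted limma p under 0.05. From E50 to E60, limma called 0 in either direction (all genes 0.547% higher and 0.27% lower), with 18 at an unadjusted p under 0.05.

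From E60 to E70, 1 member rose (0.457%, all genes 1.21%) and 0 fell (all genes 0.555%), and it was ZNF592, with 25 members at an unadjusted limma p under 0.05. From E70 to E95, 6 rose (2.74%, all genes 6.61%) and 12 fell (5.48%, all genes 6.87%). This count of 18 was 11 without E70 replicate 1, 11 without E70 replicate 2 and 9 without E95 replicate 2. As deposited, limma called 0 members from E70 to E95, with 11 at an unadjusted p under 0.05. The largest fall was that of ZNF106, from 99.998, 95.6 and 99.9 to 47.3, 48.6 and 44.6 scaled TPM, a log2 change of -1.06 (limma adjusted p 5.21e-05). The largest rise was that of ZNF219, from 6.81, 6.41 and 8.10 to 14.01, 12.7 and 10.01, a log2 change of 0.70 (limma adjusted p 0.0232).

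Of 6 members that act in development and mesenchyme, 4 fell from E33 to E95 and 0 rose (limma; all genes 23.8% and 22.8%), with a median log2 change of -0.74 against -0.06 over all members. ZNF423, which marks fat cell precursors, was at 13.3, 11.6 and 13.4 at E33 and at 6.02, 6.22 and 6.85 at E95 (change of -0.90 in log2, SE 0.08, limma adjusted p 3.93e-07). ZNF521, at 14.7, 15.9 and 15.3 and then 6.69, 6.34 and 8.52, changed by -1.005 (SE 0.10, limma adjusted p 1.64e-06). ZNF462 fell by 0.88 and ZNF536, a repressor of neuronal differentiation, fell by 0.56. ZNF503 (-0.55, limma adjusted p 0.106) and ZNF703 (-0.60, limma adjusted p 0.0775), related repressors of limb and breast development, did not pass in this comparison. All 6 carried a peak in at least 1 list (other genes 74.0%), and 5 were marked at E33 (all genes 34.8%). Their median level was 14.01 TPM, against 6.69 TPM over all members, and the part of this in the counts was not tested.

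In bulk tissue, fewer cells of a type and less RNA per cell cannot be told apart, and other cell types varied with stage. Summed TPM of 4 neuron markers was 123 to 253 at E33 and 2.39 to 2.79 at E95, of 5 erythroid markers 149 to 447 and 15.2 to 18.5, and of 3 cartilage markers 159 to 289 and 16.6 to 27.0. For 3 fat markers it was 0 to 0.246 at E33 and 19.3 to 59.8 at E95. All 7 muscle markers were detected at every stage, with a sum of 2832 to 16533 TPM over the libraries. Their sum was 3765 to 7117 at E33 and 8918 to 12783 at E95. For 4 endothelial markers it was 19.3 to 40.4 and then 41.0 to 51.5, and for 4 leukocyte markers 39.2 to 73.3 and then 23.5 to 42.4. These sums are of deposited TPM, in which the median log2 change of all genes was -1.02. The part of these shifts in the members' changes was not tested.

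The other role groups had calls in both directions, as did all genes, with 22.8% higher and 23.8% lower from E33 to E95 (limma). No test of the groups against all genes was made. Of 8 members that act on RNA or ribosomes, 2 were higher at E95, ZNF385A (0.55) and ZNF638 (0.45), and 2 lower, ZNF106 (-0.65) and ZNF326 (-0.54), a link between transcription and splicing. Of 10 widely acting transcription regulators, ZNF131 was higher (0.36) and ZNF711 (-0.51) and ZNF384 (-0.37) lower. Of the fits that left out a library, 1 of 6 called ZNF385A and 2 of 6 called each of ZNF131 and ZNF384, and ZNF385A missed the threshold with quantile normalization (limma adjusted p 0.0593). As deposited, where the median gene is lower too, ZNF385A, ZNF638 and ZNF131 turned to -0.52, -0.69 and -0.69. Of 8 corepressor and chromatin partners, ZNF592 was higher and ZNF516 (-0.81) and ZNF518B (-0.55) lower. Of the 10 transcription regulators, 6, 5, 7, 9, 7 and 7 had a peak from E33 to E95. Of the 8 corepressor partners, 7, 6, 7, 7, 6 and 7 had one, and of the 8 members acting on RNA or ribosomes 5, 3, 4, 4, 5 and 4. Of all genes, 22.5% (E40) to 34.8% (E33) had one, and of all members 29.2% (E40) to 53.0% (E70). Median levels of these groups were 7.98, 12.4 and 9.55 TPM in that order, against 6.69 TPM over all members. The part of this in the counts was not tested. ZNF143, an activator of snRNA genes, was the transcription regulator without a peak in any list.

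Of the chromatin proteins with which KRAB zinc fingers work, most of those tested fell. Of 14 tested, 10 were lower at E95 than at E33 and 0 higher (limma; all genes 23.8% and 22.8%), with a median log2 change of -0.76. TRIM28, the corepressor itself, changed by -0.76 (SE 0.14, limma adjusted p 0.000342) and UHRF1, which reads hemimethylated DNA in dividing cells, by -1.95 (SE 0.15, limma adjusted p 1.34e-07). ATRX, DAXX, ATF7IP and MPHOSPH8 were not called, with changes of 0.11, -0.04, 0.25 and -0.13. Among other finger families, 13 of 32 ZBTB genes were higher and 3 lower, as were 8 and 1 of 14 KLF genes. Higher and lower were 0 and 1 of 9 ZSCAN, 1 and 3 of 6 ZKSCAN and 3 and 0 of 13 ZFP genes. As deposited the counts turned to 1 and 13 for ZBTB and 1 and 4 for KLF. They were then 0 and 7 for ZSCAN, 0 and 4 for ZKSCAN and 0 and 6 for ZFP. Genes with a peak at E70 numbered 24 of 32 ZBTB and 8 of 14 KLF, beside 116 of 219 ZNF members and 34.4% of all genes. In the same list these were 9 of 13 ZFP, 5 of 9 ZSCAN and 3 of 6 ZKSCAN genes. The place of KLF beside ZNF varied by list. At E33 a peak was found in 7 of 14 KLF and 111 of 219 ZNF genes (all genes 34.8%). At E95 these were 10 of 14 and 110 of 219 (all genes 33.7%). The families were not matched by TPM.

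The members cluster in the genome. Of 182 with a RefSeq position, 50 lay on chromosome 6 and 27 on chromosome 3, where 1010 and 703 of the other genes tested lay. On chromosome 3, 17 of 27 members had a peak at E33 (63.0%), 19 at E70 (70.4%) and 25 in PK15 polyA RNA (92.6%). On chromosome 6 these were 22 of 50 (44.0%), 23 (46.0%) and 34 (68.0%). On the other chromosomes they were 55 of 105 (52.4%), 56 (53.3%) and 75 (71.4%). Of all genes, 34.8%, 34.4% and 57.1% had a peak in these lists. Members on chromosome 3 also had the higher median level, 9.33 TPM against 6.79 TPM on chromosome 6 and 6.69 TPM on the other chromosomes. From E33 to E95, 4 members on chromosome 6 were higher and 12 lower (limma). The counts were 2 and 5 on chromosome 3, and 17 and 23 on the other chromosomes. Of all genes, 22.8% were higher and 23.8% lower.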

How the data were processed

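Of 44 samples, TPM of 18 muscle inputs (3 per stage) and 8 peak lists were used. TPM values were computed by the authors, per the file headers, for 22427 Ensembl genes. Each deposited peak carries a ratio, the authors' fold enrichment, per the file headers. The submitters' processing notes name Trimmomatic, HISAT2 and Sscrofa11.1. The quantifier, the peak caller and any pooling are not given in the sources used here. Gaps inside spliced peaks matched RefSeq introns of Sscrofa11.1 in 74.5% to 87.0% of cases, by list. Symbols came from a table of Ensembl names (10753 genes tested had one).

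Members and lists were chosen with earlier results of these data known. TPM was scaled by median ratio (deposited TPM is an alternative), and log2(scaled TPM + 1) was fitted with limma 3.58.1 in R 4.3.3, 1 mean per stage (12 residual degrees of freedom). The test took genes averaging 1 TPM or more, and calls are those with an adjusted p (Benjamini-Hochberg, all such genes) under 0.05. Fold changes on this scale understate those of low genes. Peaks were read with Python 3.11.15, pandas 2.3.3 and pysam 0.24.0. Transcript positions came from 1 RefSeq coding transcript per symbol, and sequences from the RefSeq genome. Both the stage test and the weighting were tested on simulated data. Named members are the 8 largest called rises and falls from E33 to E95 whose libraries do not overlap, the largest per consecutive pair, the 5 of highest TPM, the 8 with most peaks, the 5 highest without one, the longest and the highest-fold peak per list, and the role groups. Reads per library, the depth, are unknown. Sequences of other peaks are not reported here.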

Additional observations from a re-analysis of the deposited data

Results flagged for a closer look

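The share of members with a peak minus that of other genes of like TPM had opposite signs between the PK15 preparations, 8.41 percentage points in polyA RNA and -3.23 in rRNA-depleted RNA. Each value comes from 1 list without a replicate, and the difference between them was not tested. With transcript length matched too, they were 7.67 and -5.22. Of the 86 members with a peak in rRNA-depleted RNA, 85 also had one in polyA RNA.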

How the results depend on the processing

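Peak lists have no replicates, TPM has no known depth, and 1 RefSeq transcript stands for each gene, which limits placement. The alternatives were run 1 at a time. Calls over 6 stages (68) were 31 as deposited and 124 after rescaling that left out the 2 genes of highest TPM. For E95 against E33 (78) these were 123 and 135, and for E95 against E70 (18) 0 and 30. As deposited, 7 members were called for E40 against E33 (37), 0 for E50 against E40 (1) and 0 for E70 against E60 (1). Rescaled without those genes, the last 2 were 0 and 4. Fitting the libraries of just the compared stages, the counts were 17 for E40 against E33, 0 for E50 against E40, 0 for E70 against E60 and 5 for E95 against E70. Without E40 replicate 2 and E50 replicate 3, 1 was called for E60 against E50 and 2 for E70 against E60. Leaving out single libraries gave 54 to 81 calls over 6 stages, 61 to 70 for E95 against E33, 13 to 48 for E40 against E33, 0 to 2 for E50 against E40, 0 to 1 for E60 against E50, 0 to 1 for E70 against E60 and 9 to 23 for E95 against E70. The replicate number as a block (replicate block) gave 63 calls over 6 stages, 80 for E95 against E33 and 0 in place of 1 for E50 against E40. No shared deviation was seen in samples of the same number (mean correlation 0.01, from -0.12 to 0.10 over 45 pairs). No label says whether they share more than the number.

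With peaks above the list's median fold, the difference in share was 21.3 points in PK15 polyA RNA and 6.15 in PK15 rRNA-depleted RNA, where it reversed. Genes assigned by RefSeq exon overlap gave 14.2 points in PK15 polyA RNA (1 base) and 15.2 (a share of 0.5 of the peak). The ratio of peaks per gene was 1.13 at E33, 1.11 at E50, 1.11 at E70 and 1.17 in PK15 polyA RNA with peaks above the median fold. It was 1.06 at E40 and 1.05 in PK15 rRNA-depleted RNA with length matched, 1.07 (both overlaps) at E40, and 1.37 and 1.36 in PK15 polyA RNA by overlap. The difference in median length became -30.0 bases at E33 with peaks above the median fold, a reversal from 0.5, and -31.0 at E40, -29.0 at E60, -30.0 at E95 and -60.0 in PK15 rRNA-depleted RNA. It was -29.0 at E40 and -27.0 at E60 with length matched, -27.0 at E60 with 5 bins of TPM and -29.0 at E50 by overlap. With GGACT in place of DRACH, the density ratio was 2.05 (E33), 2.28 (E40), 2.20 (E50), 2.18 (E60), 1.97 (E70), 2.42 (E95), 1.79 in PK15 polyA RNA and 2.25 in PK15 rRNA-depleted RNA. Where a value moved, the cause was not tested.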
